A study of Solanum lycopersicum with 8 samples.

Results

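The unplaced sequence of the tomato assembly SL4.0, named ch00 in the peak list, carried 547 of the 69690 accessible chromatin regions called in young tomato leaves. All 547 were taken by that sequence name alone, and none was removed by a filter. The remaining 69143 regions lay on chromosomes 1 to 12 and served as the comparison. Accessibility was read out by ATAC-seq, where a transposase cuts and tags DNA that is not wrapped tightly in nucleosomes. The samples were 6 biological replicates, each a collection of terminal leaflets from young leaves, of plants whose genotype label reads M82, a field tomato cultivar; the growth protocol instead names anantha-e1546 in the M82 background for the same plants. The age of the plants at harvest is not given in the sources used here. A replicate started from 1 g of tissue, and 100000 nuclei went into each reaction.

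An assembly places most of its contigs on chromosomes by genetic, optical or contact maps. Contigs that cannot be placed are joined into a pseudo-chromosome whose order is arbitrary. In plants such contigs are often short and rich in repeats, ribosomal genes, centromere satellites or copies of organelle DNA, although they can also hold ordinary genes with their promoters. Neighbours along the unplaced sequence therefore need not be neighbours in the nucleus, and a distance between regions can run across a contig join. Open chromatin in leaves usually marks promoters, enhancers and other sites bound by regulatory proteins. Where a genome holds a sequence more often than its assembly does, reads of all copies pile up on those that were assembled. Neither copy number nor read depth was measured here, and the part of either in the results was not tested.

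The deposited list is 1 list for all 6 replicates, so no spread between replicates can be given. Each peak has a start, an end, a score with a ceiling of 1000 and a −log10 q, where a larger −log10 q is stronger evidence against background. The scores and −log10 q are the authors' own and serve here to describe peaks within this list. Errors are the SD over the 12 chromosomes or 95% Wilson intervals, which cover counting error only. The intervals take peaks as independent draws. Neighbouring peaks resembled each other in score, so the intervals are likely too narrow and serve as description only. For each measure an exact two-sided permutation test asked how often any of the 13 sequences stood as far from the other 12 as the unplaced sequence did. Its smallest possible p is 0.0769, so no difference can pass a threshold of 0.05. Of 22 measures compared, 15 reached that smallest p, with a Benjamini-Hochberg adjusted p of 0.113. The 15 are not separate results, as several share the same peaks. One, the largest count in any window, is a maximum over fewer windows on the unplaced sequence. The unplaced sequence holds far fewer peaks than any chromosome, so its values also scatter more by counting alone. For that reason the chromosomes were also tiled into 73 stretches, each as long as the unplaced extent. Counts or extremes over those stretches are given for some measures, with no test.

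Accessible regions on the unplaced sequence came in blocks between long empty runs. The extent up to the last peak was 9.62 Mb, or 96 full windows of 100 kb. Of these windows, 37 held no peak, 24 held 1 to 4 peaks, 12 held 5 to 9 and 23 held 10 or more. The 23 fullest windows carried 415 peaks, or 75.9% of the 547. The median window held 2 peaks. The plot by window number shows blocks of several adjacent full windows near both ends of the sequence and a broader group in windows 26 to 37.

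**Figure D1:**
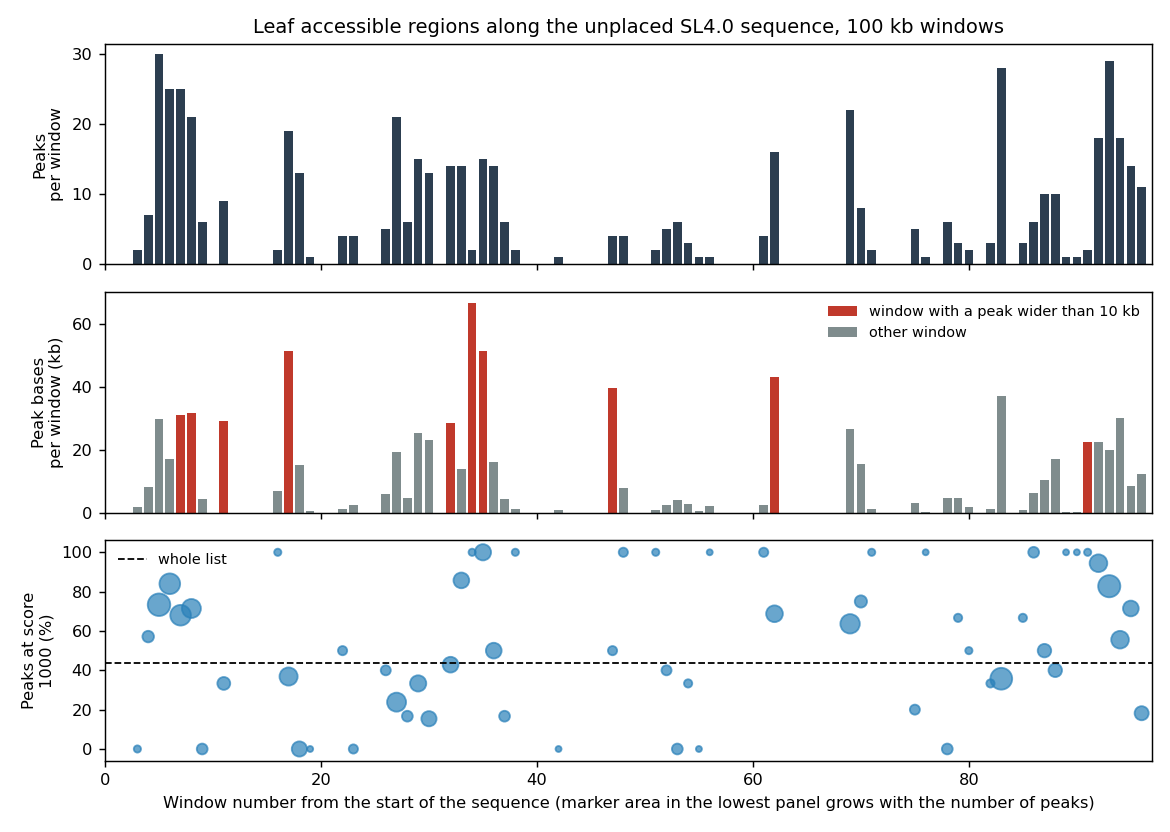
Accessible regions in the 96 full windows of 100 kb, numbered from the start of the unplaced sequence. The upper panel counts peaks, the middle panel gives peak bases in kb and the lowest panel the percentage of peaks at score 1000, with the whole-list share of 43.8% dashed. Windows 5 to 8 and 92 to 95 hold many peaks, mostly at score 1000. Window 34, with 2 peaks, has the most peak bases when each peak's full width is counted at its midpoint.

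The busiest window, from 400001 to 500000 of the unplaced sequence (SL4.0), held 30 peaks, with 22 of them at score 1000. Next came 29 peaks at 9200001 to 9300000, of which 24 stood at score 1000. The window from 8200001 to 8300000 held 28 peaks, with 10 at score 1000. The windows at 500001 to 600000 and at 600001 to 700000 held 25 peaks each, with 21 and 17 at score 1000. Of these 5 windows, 3 belonged to a block near the start of the sequence.

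Peak number and peak bases did not pick the same windows. Each peak's full width was counted in the window of its midpoint, also where it ran past the window edge. By this count the most peak bases, 66.9 kb in only 2 peaks, fell to the window from 3300001 to 3400000. The wider of the 2 ends at 3408055, in the next window. After this window came 51.6 kb in 19 peaks at 1600001 to 1700000 and 51.5 kb in 15 peaks at 3400001 to 3500000. The window at 6100001 to 6200000 had 43.4 kb in 16 peaks, and that at 4600001 to 4700000 had 39.6 kb in 4 peaks. The widest of these 4 ends at 4716898, past the window. An order by bases inside the window edges was not computed and could differ. Each of these 5 windows contained the midpoint of at least 1 peak wider than 10 kb. The 10 windows with the most bases held 413 kb, or 48.9% of the 844 kb of peak bases on the unplaced sequence.

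Empty runs were long. The longest stretch without a peak ran from 6175401 to 6804570, 629 kb, shorter than the longest on chromosomes (2.14e+06 bp). The next ran from 5531774 to 6078438, 547 kb, and from 1084099 to 1593931, 510 kb. In all, 24 gaps of 100 kb or more made up 6.06 Mb, or 63.0% of the unplaced extent. On chromosomes such gaps made up 52.7% of the summed extents. The share of 100 kb windows without a peak was 38.5%, above all 12 chromosomes, which had 31.9 ± 4.85% (SD, n = 12 chromosomes; exact permutation p = 0.231, adjusted 0.282). Among the 73 chromosome stretches of equal length, 38 had a larger empty share. How much of the empty runs is assembly gap, or repeat on which reads cannot be placed, is not known.

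Density on the unplaced sequence lay between the means of whole chromosomes and of their interiors. It was 56.9 peaks per Mb of extent, below each of the 12 chromosomes, whose mean was 90.8 ± 23.2 (SD, n = 12 chromosomes; exact permutation p = 0.231). The interior 60% of the chromosomes had a mean of 35.3 peaks per Mb (range 17.9 to 116). Against that mean the order turned. Peaks covered 8.78% of the unplaced extent, within the chromosome range of 5.97 to 13.2% (exact permutation p = 0.846). That coverage fell to 5.20% without the 10 windows that held a peak wider than 10 kb, below the range of the whole chromosomes. Among the 73 equal stretches, 24 had a higher density than the unplaced sequence and 21 a higher coverage than its full 8.78%.

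At short range, spacing resembled that of whole chromosomes in its centre, but it was tighter than in most equal stretches of them. The gap to the following peak had a median of 813 bp, with quartiles of 158 and 4412 bp. On the chromosomes the pooled median was 887 bp, with quartiles of 184 and 3625 bp. Gaps under 1 kb made up 52.9% of the 546 gaps, against 52.0 ± 2.30% (SD, n = 12 chromosomes; exact permutation p = 0.538). Interiors alone had a lower mean share, 40.2%. Among the 73 equal stretches of chromosomes, 69 had a larger median gap and 9 a larger share of gaps under 1 kb. Gaps under 100 bp made up 18.5% on the unplaced sequence and 18.6% on chromosomes. The 95th percentile of gaps differed more, at 74519 bp against 36041 bp on chromosomes. The longest gap went the other way, at 629170 bp against 2.14e+06 bp among the 69131 gaps of chromosomes.

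Linking peaks less than 10 kb apart gave 90 islands on the unplaced sequence, of which 20 were lone peaks and 20 held at least 10 peaks. The fullest island ran from 8200762 to 8268068 and held 28 peaks over 67.3 kb, with 55.3% of its span covered. Another, from 6804571 to 6852720, held 22 peaks over 48.2 kb. In the island from 9184383 to 9207003, all 15 peaks stood at score 1000. Islands of at least 10 peaks held 54.8% of unplaced peaks, against 70.2 ± 6.22% on chromosomes (SD, n = 12 chromosomes; exact permutation p = 0.0769, the smallest possible). The longest unplaced island spanned 111 kb, shorter than the longest of any chromosome, which spanned 200.2 to 543 kb. These maxima were not taken at equal size, as a chromosome held 639 to 971 islands against 90 on the unplaced sequence. A maximum over fewer islands tends to be smaller. Contig joins, whose positions are not in the list, could end an island early, and their part was not tested.

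Widths spread further on the unplaced sequence in both directions, around nearly the same centre. The median width was 687 bp, against chromosome medians of 646 to 688 bp. The lower quartile was 388 bp, below the 457 bp of pooled chromosomal peaks. The upper quartile was 1278 bp, above their 1022 bp. The 95th percentile was 5515 bp, against 2307 bp. The unplaced median moved to 654 bp, below the chromosome mean of 665 bp, without the windows that held wide peaks.

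**Figure D2:**
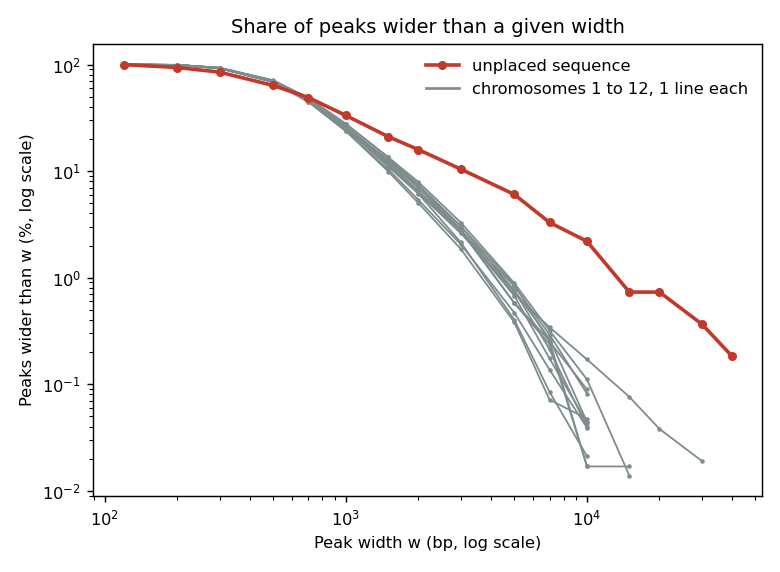
Percentage of peaks wider than a given width, in bp, with both axes on a log scale and 1 line per sequence. The lines run together near the median, and above about 1000 bp the unplaced line lies above every chromosome line, with 6.03% of its peaks wider than 5 kb and 2.19% wider than 10 kb.

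Very narrow peaks were more frequent. On the unplaced sequence, 33 peaks (6.03%; 95% interval 4.33 to 8.35%) were under 200 bp. On chromosomes the share was 0.927 ± 0.137% (SD, n = 12 chromosomes; exact permutation p = 0.0769), and the highest of the 73 equal stretches had 2.74%. These 33 peaks were 118 to 197 bp wide and lay in 19 windows, with at most 5 in 1 window, in windows 33 and 93. All stood at score 1000. This followed from the list itself. In every peak below the ceiling, score times width divided by 1000 was at least 200. A peak narrower than 200 bp can thus be listed only at the ceiling. Their median −log10 q of 2.66 was close to the 2.73 of equally narrow chromosomal peaks.

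Wide peaks were more frequent as well. On the unplaced sequence, 12 peaks were wider than 10 kb (2.19%; 95% interval 1.26 to 3.80%), against 0.0789% of the whole list. Their sum was 228 kb, or 27.0% of all peak bases there. On chromosomes, peaks of that width held 0.856 ± 0.802% of peak bases (SD, n = 12 chromosomes; exact permutation p = 0.0769). The highest chromosome was chromosome 8, at 3.09%. No equal stretch of a chromosome held more than 6 wide peaks or more than 9.46% of its bases in them. With a limit of 5 kb the share of unplaced peaks was 6.03%, and with 20 kb it was 0.731%, each above all 12 chromosomes. Of the 6 peaks of the list over 20 kb, 4 lay on the unplaced sequence.

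The widest, at 3362266 to 3408055 (SL4.0 unplaced sequence), spanned 45.8 kb with a −log10 q of 9.07. The second, at 4683065 to 4716898, spanned 33.8 kb with a −log10 q of 7.31. They were followed by a peak of 22.3 kb at 9075163 to 9097422, with a −log10 q of 8.20, and by a peak of 21.2 kb at 3336658 to 3357808, with 9.46. The last of these was the direct neighbour of the widest, 4.46 kb away.

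The other 8 wide peaks were 10.2 to 14.8 kb. They lay at 776472 to 791317 (14.8 kb), 6108325 to 6122823 (14.5 kb), 3481333 to 3495316 (14.0 kb) and 3185661 to 3199327 (13.7 kb). The narrowest of them lay at 680091 to 693040 (12950 bp), 3434839 to 3447436 (12.6 kb), 1021653 to 1034139 (12.5 kb) and 1624444 to 1634665 (10.2 kb). The last stood just above the limit, and the next narrower unplaced peak, at 2915341 to 2924452, was 9112 bp wide. Of the 12, the peak at 680091 had the highest −log10 q, 14.4, and that at 1021653 the lowest, 3.27.

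Wide peaks clustered in part. Runs of wide peaks within 100 kb of each other formed 2 clusters with 6 of the 12. The larger ran from 3336658 to 3495316, 159 kb, and held 4 wide peaks. Within it 71.6% of the sequence lay in peaks, and all 15 peaks stood at score 1000. The smaller ran from 680091 to 791317, 111 kb, with 2 wide peaks among 22 peaks, and 37.9% of it lay in peaks. Among chromosomes, chromosome 8 had 1 cluster of 4 wide peaks and chromosome 3 had 1 of 2. With runs within 50 kb the clusters held 4 unplaced wide peaks, and with 200 kb they held 7.

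Wide unplaced peaks differed from the wide chromosomal peaks in their values. Their median width was 14.2 kb, against 11.5 kb for the 43 on chromosomes. Their median −log10 q was 8.10, against 11.0. A −log10 q of at least 10 was found in 1 of the 12 unplaced and in 31 of the 43 chromosomal wide peaks. All 55 stood at score 1000. These are descriptions of peaks picked by width, with no test.

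The score ceiling was reached more often on the unplaced sequence. There 303 peaks (55.4%; 95% interval 51.2 to 59.5%) stood at 1000, against 43.8% of the whole list. Each chromosome had a lower share, from 41.8 to 44.9% (exact permutation p = 0.0769). Of the 73 equal stretches, 1 had a larger share, up to 59.3%. The share was 52.5% among unplaced peaks of at least 200 bp and 53.1% without the windows that held wide peaks. Each of these values was above the 12 chromosomes measured the same way.

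The excess at the ceiling was not uniform over width. Among peaks under 500 bp, 54.3% of 199 stood at 1000 on the unplaced sequence, against 40.9 to 44.8% on the chromosomes, but the 33 under 200 bp stand there by the limit on area. Of the 166 peaks from 200 bp to under 500 bp, 45.2% stood at 1000, against 39.2 to 42.9%. From 500 bp to under 1 kb it was 42.2% of 166, against 32.5 to 36.3%. From 1 to under 2 kb the order turned, with 48.4% of 95 against 48.7 to 55.2%. From 2 to under 10 kb it was 89.3% of 75, against 73.6 to 80.1%. The exact permutation p was 0.0769 in each class, with or without the peaks under 200 bp, and the counting error was wide. The Wilson intervals from 200 bp to under 500 bp, 37.8 to 52.8%, and from 1 to under 2 kb, 38.6 to 58.3%, held every chromosome value, and that from 500 bp to under 1 kb, 34.9 to 49.8%, held the higher ones. Of the classes in the plot by width, only that from 2 to under 10 kb had an interval, 80.3 to 94.5%, above every chromosome value. As neighbouring peaks are not independent, this interval is likely too narrow. In that class 10 of the 73 equal stretches had a larger share than the unplaced sequence.

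**Figure D3:**
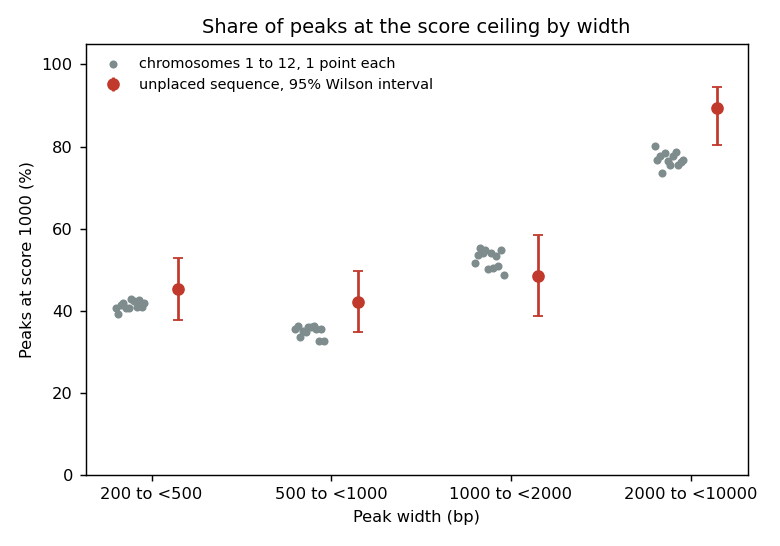
Percentage of peaks at score 1000 in 4 width classes, in bp, with 1 grey point per chromosome and the unplaced sequence in red with its 95% Wilson interval. Peaks under 200 bp, which can be listed only at 1000, are left out. The unplaced value lies above all chromosome points except from 1 to under 2 kb, and its interval lies above them all only from 2 to under 10 kb.

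Peaks at the ceiling occurred next to each other. For neighbours less than 10 kb apart on the unplaced sequence, 69.0% of the 252 peaks that followed a ceiling peak were at the ceiling too, against 38.5% of the 205 that followed a lower peak. The difference was 30.5 percentage points, and on chromosomes it was 12.8 ± 1.21 percentage points (SD, n = 12 chromosomes; exact permutation p = 0.0769). By window, the share at the ceiling ran from 0 to 100% among the 35 windows with at least 5 peaks. In 4 of them, with 31 peaks in all, no peak reached 1000. In 6 of them over 80% did. No chromosome windows are set beside these counts, and shares of windows with few peaks scatter widely by counting alone. The neighbour difference is given per whole chromosome and not for the equal stretches.

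A pair of blocks, picked after their values were seen, held many of the ceiling peaks. Windows 5 to 8, from 400001 to 800000, held 101 peaks, of which 74.3% were at 1000. Windows 92 to 95, from 9100001 to 9500000, held 79 peaks, of which 77.2% were at 1000. Together they held 180 peaks with a median width of 491 bp and 12 of the 19 unplaced peaks with a −log10 q of at least 10. The other 367 unplaced peaks had a median width of 781 bp. Of them 45.5% were at 1000, against 43.8% of the whole list and 41.8 to 44.9% on the chromosomes. Because the blocks set apart have a high share, the share of the rest is lower by construction.

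The −log10 q followed width differently. Over all widths the unplaced median was 2.81, above each chromosome median (2.51 to 2.63; exact permutation p = 0.0769). Unplaced peaks under 500 bp had a median of 2.46, against chromosome medians of 2.31 to 2.41. From 200 bp to under 500 bp it was 2.29, within the chromosome range of 2.28 to 2.38 (exact permutation p = 0.538). Those of 500 bp to under 1 kb had 2.56, against 2.20 to 2.32. Peaks of 1 to under 2 kb had a lower median than every chromosome, 3.09 against 3.47 to 3.98. So did those of 2 to under 10 kb, at 5.10 against 5.49 to 6.51. In this last class the unplaced peaks thus had a larger share at the score ceiling and a weaker median −log10 q than any whole chromosome. Equal stretches of chromosomes overlapped more: of the 73, 10 had a larger ceiling share in this class and 19 a lower median −log10 q. From 1 to under 2 kb, 17 stretches had a lower median, and over all widths 4 had a higher one. The exact permutation p was 0.0769 in each of the 4 classes that include the peaks under 200 bp with those under 500 bp.

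**Figure D4:**
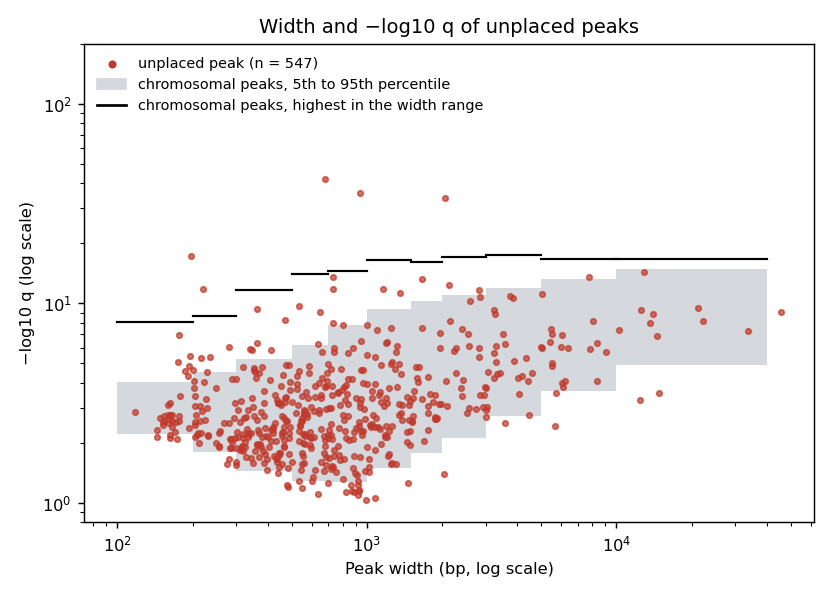
Width in bp and −log10 q of the 547 unplaced peaks, with both axes on a log scale. Grey blocks span the 5th to 95th percentile of chromosomal peaks in each width range and black lines their highest value; 3 unplaced peaks lie above 30, whereas the 45.8 kb peak has a −log10 q of 9.07.

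The −log10 q rose with width, and few of the strongest unplaced peaks were wider than 10 kb, as few of all 547 were. In all, 19 unplaced peaks (3.47%; 95% interval 2.23 to 5.36%) had a −log10 q of at least 10, against 2.00% of the whole list, just below that interval. Their median width was 2065 bp, against 687 bp for all 547. Of the 19, 1 was wider than 10 kb and 6 were under 1 kb, against 12 and 365 of all 547. Across the 547 peaks, which share 1 list, width and −log10 q had a Spearman rho of 0.35, and rho was 0.26 to 0.34 across the peaks of each chromosome. Among peaks under 1 kb, 1.64% of the 365 unplaced and 0.385% of the chromosomal peaks reached 10. Of the 73 equal stretches of chromosomes, 21 held more than 19 peaks of any width with a −log10 q of at least 10. This compares counts and not shares, as the stretches held 83 to 3090 peaks each.

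The top 3 unplaced peaks stood far above the rest. The peak at 5063558 to 5064238, 681 bp wide, had a −log10 q of 42.3. The peak at 3721110 to 3722048, 939 bp wide, had 35.7. The peak at 5529709 to 5531773, 2065 bp wide, had 33.7. No chromosomal peak passed 17.4, and each chromosome's highest value was 13.4 to 17.4 (exact permutation p = 0.0769). Without these 3 the highest unplaced value was 17.4, just under the highest chromosome.

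All 3 lay beside long empty runs. The peak at 5063558 followed 331 kb without a peak and had 1 other peak within 50 kb. That neighbour, at 5067975 to 5068171, was 197 bp wide and had the fourth highest value, 17.4; no chromosomal peak under 200 bp passed 8.05. The peak at 3721110 preceded a gap of 470 kb and had 2 other peaks within 50 kb. The peak at 5529709 stood between gaps of 128 and 547 kb, with no other peak within 50 kb.

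The remaining 6 of the 10 strongest lay in fuller surroundings. They were at 680091 to 693040 (−log10 q of 14.4), 9185718 to 9193484 (13.6), 9252880 to 9253609 (13.6), 3245942 to 3247611 (13.3), 610959 to 613085 (12.4) and 9250389 to 9251551 (11.8). Each had 13 to 27 other peaks within 50 kb. Strength and isolation thus went together in the first 4 of the 10 and not in the rest. Just outside the 10, the peak at 3700320 to 3700540 (11.8) again had only 2 other peaks within 50 kb.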

How the data were processed

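ATAC-seq peaks of 6 leaf replicates came as 1 list. Per the submitters' processing notes, the tools of the series included Trimmomatic, BWA, Picard, SAMtools, bedtools and Genrich 0.6; their roles are not stated there, and no setting is known. For each peak the authors deposited its start and end on SL4.0 sequence names, with a score and a −log10 q. The score is deposited as a whole number up to 1000. Score times width divided by 1000 was checked in all 39170 peaks below the ceiling and was at least 200 after rounding. Positions are printed 1-based, taking the deposited starts as BED starts. The read depth behind a peak is unknown.

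Extent is the end of the last peak, and windows of 100 kb hold the peaks whose midpoints fall in them, with their full widths. Measures were computed per sequence in Python 3.11.15 with pandas 2.3.3, numpy 2.4.6 and scipy 1.17.1, and the code was tested on simulated data. The unplaced value was set against the 12 chromosome values by an exact two-sided permutation over 13 sequences, with Benjamini-Hochberg adjustment over 22 measures. The island and neighbour measures, and those of peaks from 200 bp to under 500 bp, stand outside that family, with unadjusted p. Named peaks are those wider than 10 kb and the 10 with the highest −log10 q; named windows are the 5 with most peaks and the 5 with most peak bases. The other named peaks, islands and blocks were chosen after their values were seen. The members, measures and limits were chosen with earlier results of these data known. The Hi-C list has no loop on unplaced sequence and was not used. No genes or sequences are given, because the gene table used here belongs to another assembly.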

Additional observations from a re-analysis of the deposited data

How the results depend on the processing

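No alternative could pass the 0.05 threshold, since the smallest p is 0.0769. Without the 10 windows that hold wide peaks, the unplaced sequence fell below the chromosome mean in coverage (5.20%) and median width (654 bp), and its share of wide peaks was 0 by construction; removing such windows from all 13 sequences, added after seeing the data, gave the same 5.20% and 654 bp, again below the chromosome means. Against the mean of chromosome interiors the density of 56.9 peaks per Mb turned from lower to higher. The count of 547 was 348 with a minimum width of 500 bp. Every other alternative run kept its direction. Merging within 150 bp left 416 peaks and a q of at most 0.05 left 528. No paired analysis was possible because the list carries no replicate values, and no replicate could be left out for the same reason. Area, p and summit columns, planned if listed, are not among the columns used here. Depth is unknown, so an empty window sets no limit of detection.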
